A study of Mus musculus with 8 samples.

Results

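Slc25a37, the mitochondrial iron carrier known as mitoferrin-1, was read in mouse dorsal root ganglia together with its paralog Slc25a28 (mitoferrin-2) and with 5 genes of red blood cells, Hba-a1, Hbb-b1, Hbb-b2, Alas2 and Slc4a1. The 7 genes were taken by name from the 24421 genes of the deposited count table. Slc25a37 was chosen by its counts at 30d against 0d in earlier results of these data, and the others were chosen as its paralog and as genes of the cell lineage in which mitoferrin-1 is best known. All 7 were among the 17328 genes that passed the filter on low counts.

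The ganglia (L3 to L5) came from wild-type (WT) C57BL/6J mice of 8 weeks, as labelled. The study's methods name males of the JRj substrain and give an age range in place of a single age. The naive group (0d) was untreated, and the other 3 groups received 20 µl of 1% carrageenan, a seaweed polysaccharide that inflames tissue, in the left hind paw. Their ganglia were taken on day 1 (1d), day 3 (3d) or day 30 (30d). Each time point had 2 libraries, each a pool of 2 to 3 mice, so the spread and the p-values below are those between pools and not between animals. No vehicle-injected group entered the table, so time, injection and handling cannot be told apart. The mice were perfused through the heart with an RNA preservative before dissection. Counts per library totalled 44123208 to 73580338. Although the samples are labelled as neurons, the whole ganglion was extracted. The summed level of 10 sensory neuron markers was 14160 to 15262 CPM (counts relative to the scaled library total) and that of 8 glia markers 5970 to 11299 CPM, so both cell classes were present in every library.

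In red cell precursors, mitoferrin-1 carries iron across the inner mitochondrial membrane, where it is inserted into protoporphyrin to make haem. Mitoferrin-2 does the same work in most other cell types, which need iron mainly for iron-sulphur clusters and respiratory enzymes. Alas2 encodes the erythroid form of the enzyme that starts haem synthesis, Hba-a1 encodes alpha globin, Hbb-b1 and Hbb-b2 encode beta globins, and Slc4a1 encodes band 3, the anion exchanger of the red cell membrane. In whole tissue, red cells in vessels are a known source of globin RNA. Because these are bulk samples, fewer cells of a type and less RNA per cell cannot be told apart.

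The mitoferrin genes lie apart in the mm10 genome. Slc25a37 covers chr14:69241851-69285103 on the minus strand with 4 exons and 4162 exonic bases, and Slc25a28 covers chr19:43663801-43674881 on the minus strand with 4 exons and 1535 exonic bases. Their coding sequences (GENCODE vM21) were identical at 73.5% of 999 aligned bases. The longest run that both coding sequences share is 15 bases, at bases 610 to 624 of Slc25a37 counted from the start of its coding sequence, and it is shown to make plain how far the paralogs have diverged:
Slc25a37 and Slc25a28, shared run: cagctgaccatgaat
No word of 50 bases was common to the 2 transcripts, so reads of one mitoferrin could not be counted on the other over such a length. Slc25a37 did share 8.07% of its 50-base words with Gm16867, a neighbouring locus on chromosome 14 that repeats its first exon. Gm16867 had no row in the count table.

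The globin rows were not independent measurements of single genes. The Hba-a1 row had the same count as the Hba-a2 row in every library. It spans chr11:32283672-32297303, which covers both alpha globin loci, with 6 exons. Hbb-b1 (chr7:103826532-103827929, minus strand) had the same counts as Hbb-bs, and Hbb-b2 (chr7:103812524-103813923, minus strand) had the same counts as Hbb-bt, which are names for the same loci. Within each pair of neighbouring loci the coding sequences differed at a single base, C381T between Hba-a1 and Hba-a2 and C417T between Hbb-bs and Hbb-bt, with positions counted from 1 at the start of the coding sequence. The 41 bases around each difference are shown, with the differing base in capitals, because they show how little sequence separates the loci:
Hba-a1: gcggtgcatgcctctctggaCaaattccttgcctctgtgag
Hba-a2: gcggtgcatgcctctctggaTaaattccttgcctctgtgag
Hbb-bs: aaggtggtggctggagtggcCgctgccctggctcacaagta
Hbb-bt: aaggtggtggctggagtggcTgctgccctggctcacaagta
Of the 50-base words of the longest transcript, 65.8% in Hbb-bs and 58.3% in Hbb-bt were also found in the other gene. For the alpha pair the shares were 67.5% in Hba-a1 and 86.9% in Hba-a2. Read pairs that fit both loci equally well may not have been counted. The alpha and beta globin levels may therefore be too low, and the level of Hbb-b1 relative to Hbb-b2 is uncertain. Alas2 (chrX:150547417-150570622, plus strand) and Slc4a1 (chr11:102348820-102365281, minus strand) shared no 50-base word with another gene. A microRNA gene, Mir3620, overlaps 1.47% of the exonic bases of Alas2.

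The promoters of 4 erythroid loci are shown as a description of sequence. The globins and Alas2 varied together across libraries (values below), and the part of promoter sequence in this was not tested. Each runs from 250 bases before to 50 bases after the RefSeq start in GRCm38.p6. Capitals mark GATA words (AGATAA or TGATAA or AGATAG or TGATAG, the core that GATA1 and related factors recognise) and KLF words (CCNCNCCC, a CACCC-type core), on either strand, and KLF words may overlap one another:
Hba-a1 (chr11:32283422-32283721, plus strand): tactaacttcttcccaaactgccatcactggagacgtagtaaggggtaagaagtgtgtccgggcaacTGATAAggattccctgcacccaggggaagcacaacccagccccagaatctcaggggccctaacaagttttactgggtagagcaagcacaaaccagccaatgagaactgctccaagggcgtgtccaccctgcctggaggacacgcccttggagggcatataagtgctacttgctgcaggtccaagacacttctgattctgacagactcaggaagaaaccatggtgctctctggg
Hbb-bs (chr7:103827879-103828178, minus strand): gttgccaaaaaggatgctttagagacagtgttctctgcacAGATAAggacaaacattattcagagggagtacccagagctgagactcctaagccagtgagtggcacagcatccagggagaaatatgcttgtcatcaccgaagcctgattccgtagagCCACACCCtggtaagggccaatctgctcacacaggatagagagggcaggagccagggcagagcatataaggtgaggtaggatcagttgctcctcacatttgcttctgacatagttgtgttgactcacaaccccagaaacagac
Hbb-bt (chr7:103813874-103814173, minus strand): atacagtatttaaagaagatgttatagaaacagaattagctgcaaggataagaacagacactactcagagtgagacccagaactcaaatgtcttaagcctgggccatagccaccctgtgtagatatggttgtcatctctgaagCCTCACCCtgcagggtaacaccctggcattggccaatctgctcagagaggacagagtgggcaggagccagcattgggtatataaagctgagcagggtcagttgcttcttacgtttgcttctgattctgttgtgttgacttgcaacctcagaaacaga
Alas2 (chrX:150547167-150547466, plus strand): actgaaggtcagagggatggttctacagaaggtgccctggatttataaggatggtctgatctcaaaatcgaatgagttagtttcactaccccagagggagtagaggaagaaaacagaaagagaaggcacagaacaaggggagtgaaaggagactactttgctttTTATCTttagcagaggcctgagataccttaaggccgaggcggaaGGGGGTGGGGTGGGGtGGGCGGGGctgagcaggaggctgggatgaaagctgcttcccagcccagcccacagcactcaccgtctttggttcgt
Hba-a1 had 1 GATA word, Hbb-bs 1 GATA and 1 KLF word, Hbb-bt 1 KLF word and Alas2 1 GATA and 4 KLF words. The promoter of Slc25a28 held 1 GATA and 1 KLF word. Of 32851 RefSeq promoters of the same length, 29.8% held a GATA word, 49.5% a KLF word and 10.2% both, so such matches are common. They describe letters in these windows and are not evidence of binding.

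Slc25a37 was higher at 30d than at any earlier time point. It measured 19.0 and 19.7 CPM at 0d, 22.2 and 19.0 CPM at 1d, 19.5 and 19.7 CPM at 3d, and 30.7 and 28.7 CPM at 30d, in replicates 1 and 2. The 0d, 1d and 3d libraries overlapped one another, and the lower 30d library lay above the highest of the other 6 libraries. In order of mean level the time points ran 0d, 3d, 1d and 30d, and the first 3 did not differ beyond their spread. The 30d mean of 29.7 CPM was 1.54 times the 0d mean of 19.3 CPM, a log2 fold change of 0.62 (SE 0.09), and against 3d the log2 fold change was 0.60 (SE 0.09). These 30d contrasts chose the gene, so they are given as descriptions without a test. Against 0d the log2 fold change was 0.09 at 1d (95% interval -0.11 to 0.29) and 0.02 at 3d (-0.18 to 0.21), with adjusted p = 1.00 and 0.999 by edgeR's quasi-likelihood test. For 3d against 1d it was -0.07 (-0.27 to 0.12, adjusted p = 1.00).

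**Figure D1:**
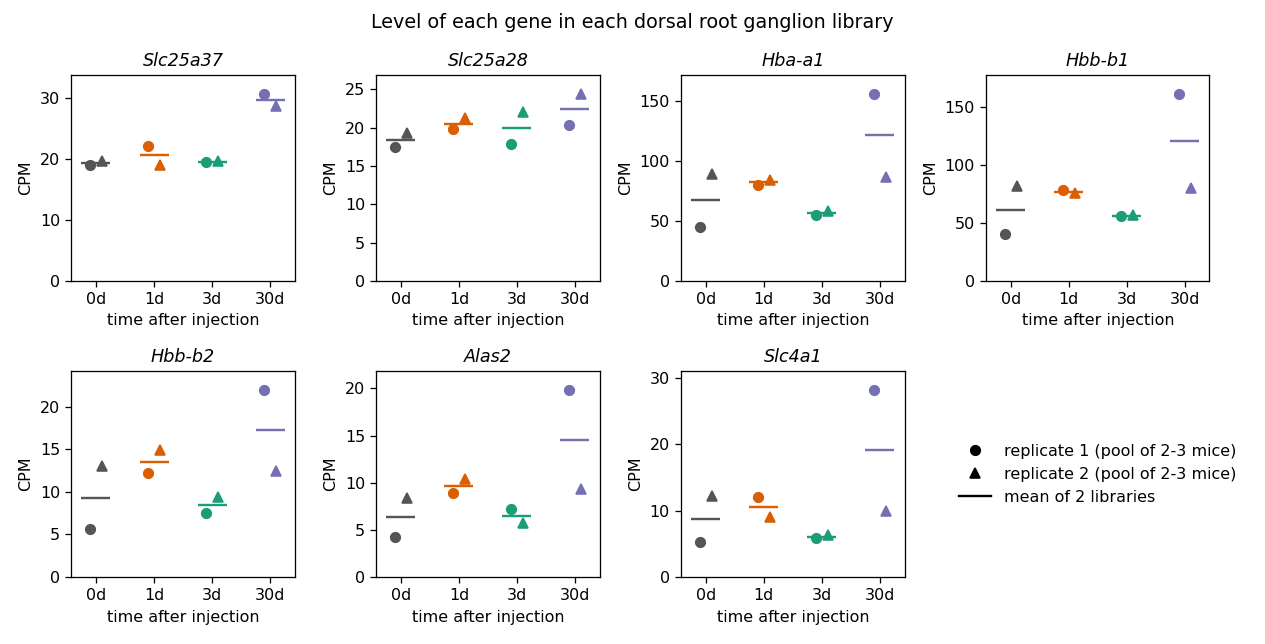
CPM of each gene (vertical axis, from 0) in each library at 0d, 1d, 3d and 30d. Circles are replicate 1, triangles replicate 2 and bars the mean of the 2 libraries. Both 30d points of Slc25a37 (30.7 and 28.7 CPM) sit above its other 6 libraries, while the 30d points of the globins, Alas2 and Slc4a1 lie far apart.

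Slc25a28 ranged from 17.5 to 24.4 CPM, and its mean was also highest at 30d (22.4 CPM, against 18.4 CPM at 0d). Its levels were 17.5 and 19.3 CPM at 0d, 19.8 and 21.2 CPM at 1d, 17.9 and 22.0 CPM at 3d, and 20.3 and 24.4 CPM at 30d. The 30d libraries both lay above both 0d libraries but overlapped those of 1d and 3d. The log2 fold change at 30d against 0d was 0.28 (SE 0.12), given without a test. Against 3d it was 0.16 (95% interval -0.08 to 0.41, adjusted p = 0.576 by edgeR), against 0d it was 0.16 at 1d (-0.10 to 0.41) and 0.12 at 3d (-0.13 to 0.37), and for 3d against 1d it was -0.04 (-0.29 to 0.21). The last 3 had adjusted p of 0.999 to 1.00.

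Per length, mitoferrin-2 was the more abundant of the pair at every time point. Over the 8 libraries Slc25a28 averaged 13.2 CPM per kilobase of exon and Slc25a37 5.36 CPM per kilobase. The ratio of Slc25a37 to Slc25a28 per kilobase was 0.400 and 0.377 in the naive pools. It was 0.413 and 0.331 in the 1d pools, 0.402 and 0.329 in the 3d pools, and 0.558 and 0.434 in the 30d pools. Mean ratios in the same order were 0.389 ± 0.0165, 0.372 ± 0.0579, 0.366 ± 0.0515 and 0.496 ± 0.0872 (SD, n = 2). Both 30d ratios were above all 6 others, though the lower one exceeded the highest earlier ratio by less than the 30d SD. Since Slc25a37 was chosen for its 30d level, this too is a description.

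**Figure D2:**
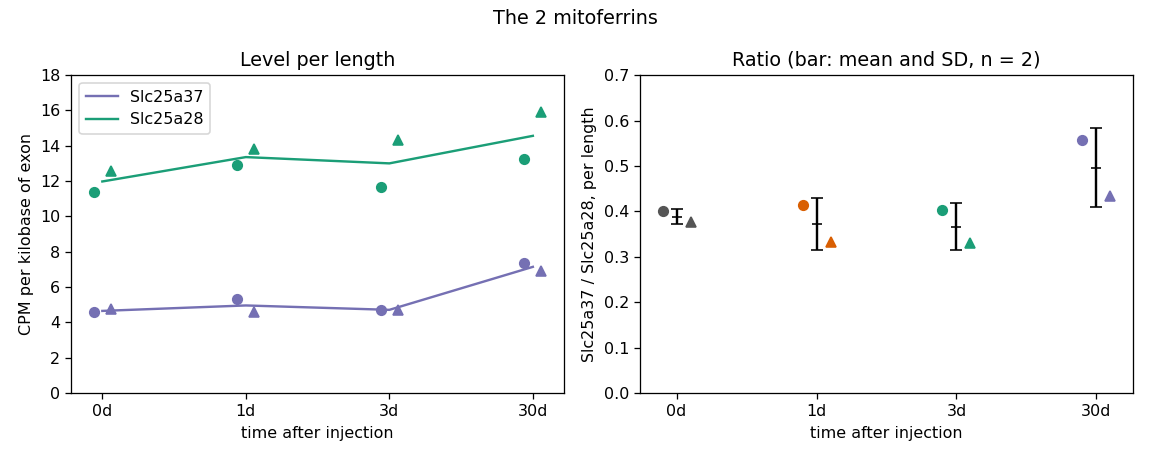
Left, level of Slc25a37 and Slc25a28 in CPM per kilobase of exon at each time point, with lines through the means of 2 libraries; right, the ratio of Slc25a37 to Slc25a28 per length with mean and SD (n = 2). Circles are replicate 1 and triangles replicate 2. Slc25a28 lies above Slc25a37 throughout, and the ratio is 0.329 to 0.413 before 30d and 0.434 and 0.558 at 30d.

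The erythroid genes showed a different arrangement, with the pools of a single time point far apart. Hba-a1 measured 45.3 and 89.5 CPM at 0d, 80.2 and 84.5 CPM at 1d, 55.0 and 58.6 CPM at 3d, and 156 and 87.0 CPM at 30d. Its 2 libraries differed 1.98-fold at 0d and 1.79-fold at 30d, but 1.05-fold at 1d and 1.06-fold at 3d. Replicate 2 was the higher at 0d and replicate 1 at 30d. The second 30d library lay within the range of the 0d libraries.

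The beta globins followed alpha globin closely. Hbb-b1 measured 40.2 and 81.8 CPM at 0d, 78.1 and 76.1 CPM at 1d, 55.8 and 56.5 CPM at 3d, and 161 and 80.6 CPM at 30d. Hbb-b2 measured 5.63 and 12.99 CPM at 0d, 12.2 and 14.9 CPM at 1d, 7.54 and 9.43 CPM at 3d, and 21.9 and 12.5 CPM at 30d. In both genes the 30d libraries spanned a gap about as wide as that of Hba-a1, 2.00-fold and 1.76-fold.

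Alas2, which supplies the first step of erythroid haem synthesis, measured 4.21 and 8.41 CPM at 0d, 8.89 and 10.4 CPM at 1d, 7.18 and 5.73 CPM at 3d, and 19.8 and 9.28 CPM at 30d. Slc4a1 measured 5.25 and 12.1 CPM at 0d, 12.1 and 9.01 CPM at 1d, 5.90 and 6.29 CPM at 3d, and 28.2 and 10.0 CPM at 30d. The gap between the 30d pools was 2.14-fold for Alas2 and 2.82-fold for Slc4a1, against 1.07-fold for Slc25a37 in the same pair of libraries. Across 14645 genes with a mean of at least 1 CPM, the median gap between the 30d pools was 0.11 on the log2 scale.

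Mean levels of the 5 erythroid genes were highest at 30d in each case. Against 0d the log2 fold changes at 30d were 0.85 (SE 0.45) for Hba-a1, 0.98 (SE 0.49) for Hbb-b1, 0.88 (SE 0.50) for Hbb-b2, 1.20 (SE 0.51) for Alas2 and 1.12 (SE 0.67) for Slc4a1. These are larger than the value for Slc25a37, and so are their standard errors. At 30d both libraries exceeded both 0d libraries for Alas2, Slc25a37 and Slc25a28, where 19.4% of all genes tested did so. The other 4 erythroid genes overlapped. Of all genes tested, 0.0231% were called in 30d against 0d, and no test is read for the 7 genes in this contrast. With 30d replicate 1 left out, Hba-a1 gave 0.36, Hbb-b1 0.40, Hbb-b2 0.41, Alas2 0.55 and Slc4a1 0.19 on the log2 scale, and Slc25a37 gave 0.57.

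**Figure D3:**
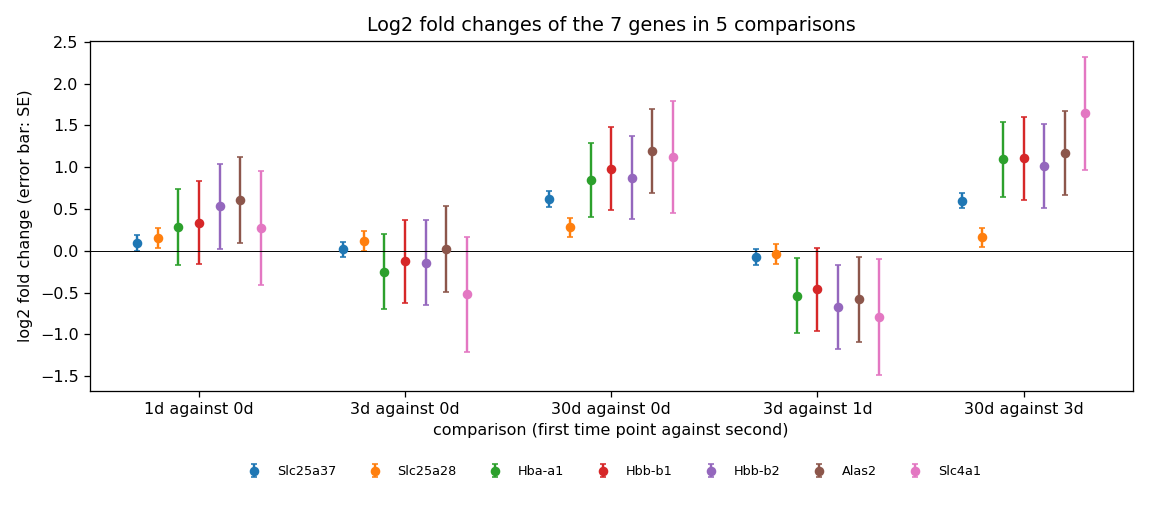
Log2 fold change (vertical axis, bars are SE) of the 7 genes in 5 comparisons from a fit of all 8 libraries. At 30d Slc25a37 has a smaller change (0.62) and a smaller SE (0.09) than the erythroid genes, whose SE are 0.45 to 0.67 in that comparison.

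At 1d and 3d no erythroid gene passed the test against 0d, and none did with DESeq2 or limma-voom. At an unadjusted p under 0.05 (edgeR) were 0 of them, where 774 of 17328 genes tested were at 1d and 1030 at 3d. The share of all genes called was 0.346% at 1d and 0.219% at 3d. At 1d the log2 fold changes were between 0.27 (Slc4a1) and 0.61 (Alas2), each with adjusted p = 1.00 by edgeR, and the intervals were wide, -0.94 to 1.51 for Hba-a1 and -0.75 to 1.96 for Alas2. Alas2 and Slc25a28 were the members whose 1d libraries both lay above both 0d libraries, as 15.5% of all genes did. At 3d they were between -0.52 (Slc4a1) and 0.02 (Alas2), with adjusted p = 0.999, and every member overlapped with 0d, where 39.5% of all genes tested did not. Leaving out 0d replicate 1 turned the 1d value of Hba-a1 to -0.12, and leaving out 0d replicate 2 turned the 3d value to 0.33. For Hba-a1 the direction against 0d therefore rested on which naive pool was used. With a library left out, the lowest 1d values were -0.083 for Hbb-b1 and -0.20 for Slc4a1, but 0.060 for Hbb-b2 and 0.20 for Alas2.

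Between 1d and 3d, the mean of each of the 5 erythroid genes was lower at 3d. The 2 pools of a time point were 1.01-fold to 1.34-fold apart in these genes, closer than at 0d or 30d. Log2 fold changes were -0.53 for Hba-a1, -0.46 for Hbb-b1, -0.67 for Hbb-b2, -0.58 for Alas2 and -0.79 for Slc4a1. In each, both 3d libraries lay below both 1d libraries, as was the case for 17.6% of all genes. The globins and the other 2 genes vary together, so the 5 are not separate observations. In the fit of all 8 libraries, where 0.289% of genes were called, none passed (edgeR adjusted p = 1.00 for each, with SE from 0.45 to 0.69), because that fit takes the spread from all 4 time points. Fitted with the 1d and 3d libraries alone, a fit that called 260 genes against 50 in that of all libraries, all 5 passed, with edgeR adjusted p of 1.05e-06 for Hba-a1, 4.57e-06 for Hbb-b1, 0.00482 for Hbb-b2, 0.0254 for Alas2 and 0.00202 for Slc4a1. The call therefore depended on whether the 0d and 30d pools counted towards the error.

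At 30d against 3d the erythroid genes all had higher libraries with no overlap, as 22.9% of all genes did, and none passed the test, where 0.935% of genes were called. The log2 fold change was 1.09 (95% interval -0.13 to 2.32) for Hba-a1, 1.11 (-0.24 to 2.45) for Hbb-b1, 1.02 (-0.32 to 2.35) for Hbb-b2, 1.17 (-0.15 to 2.50) for Alas2 and 1.64 (-0.21 to 3.49) for Slc4a1. Their edgeR adjusted p lay between 0.424 and 0.483, and none passed with DESeq2 or limma-voom. At an unadjusted p under 0.05 (edgeR) were 0 of them, where 2254 of 17328 genes tested were. These intervals include both no change and changes larger than that of Slc25a37.

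The summed globin level was compared with Slc25a37 library by library. Hba-a1, Hbb-b1 and Hbb-b2 together measured 91.1 and 184 CPM at 0d, 170 and 176 CPM at 1d, 118 and 125 CPM at 3d, and 339 and 180 CPM at 30d. The second 0d library and the second 30d library measured 184 and 180 CPM of globin and 19.7 and 28.7 CPM of Slc25a37. The 2 naive libraries differed 2.02-fold in globin and 1.04-fold in Slc25a37. With the log2 globin level of each library as a covariate, an alternative added after the data were seen, the log2 fold change of Slc25a37 was 0.55 (SE 0.13) at 30d against 0d and 0.53 (SE 0.13) against 3d. The standard errors were larger than the 0.09 without it. These are descriptions, since the 30d values chose Slc25a37, and the part of red cell content in its level was not tested.

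**Figure D4:**
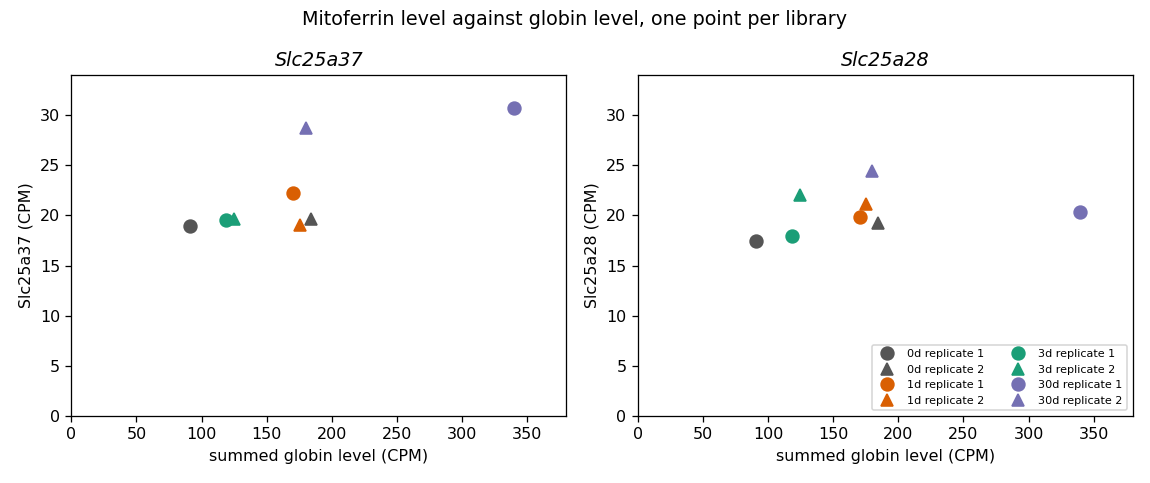
Level of Slc25a37 (left) and Slc25a28 (right) in CPM against the summed level of Hba-a1, Hbb-b1 and Hbb-b2 in CPM, with 1 point per library. The 30d replicate 2 library has a globin level of 180 CPM, close to that of 0d replicate 2 (184 CPM), and their Slc25a37 levels are 28.7 and 19.7 CPM.

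The patterns of Slc25a37 and Hba-a1 were each compared with those of 14644 other genes. For each gene the log2 CPM was centred on its mean over the 8 libraries, and likeness was the mean absolute difference between centred values, which is a description that includes the 30d values that chose Slc25a37 and that grows with how widely a gene varies. The genes most like Slc25a37 were Lrrc45 (0.06), Pisd-ps1 (0.06), Trpv4 (0.07), C920006O11Rik (0.07) and Arhgap4 (0.08), against a median of 0.24 over all genes. Trpv4 encodes a cation channel of sensory and other cells, and Lrrc45 a centrosomal protein. Slc25a28 ranked 707 in likeness to Slc25a37, and Alas2 ranked 13979 and Slc4a1 14460. The genes most like Hba-a1 were Hba-a2, Hbb-bs, Hbb-b1, Hbb-bt and Hbb-b2, of which Hba-a2 has the same counts by construction. In likeness to Hba-a1, Alas2 ranked 8 and Slc4a1 15. Slc25a37 ranked 205 there, at 0.33, below the median of 0.42 over all genes.

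Markers of neutrophils differed between the pools of 0d and of 30d, and those of platelets between the pools of 30d. The sum of 11 neutrophil markers was 54.0 to 117 CPM at 0d, 130 to 138 CPM at 1d, 175 CPM in both 3d libraries and 116 to 278 CPM at 30d, and all 11 had a higher mean at 30d than at 0d. The sum of 9 platelet markers was 12.6 to 13.8 CPM at 0d and 10.5 to 24.8 CPM at 30d. In both lists the higher 30d value was that of replicate 1, the library with the highest globin level. No marker in these lists was at 0 in all 8 libraries. Endothelial markers summed to 154 to 163 CPM at 0d and 136 to 165 CPM at 30d. Glia markers summed to 8622 to 11299 CPM at 0d and 5970 to 8243 CPM at 30d, the lowest in 30d replicate 1. Of 8 glia markers, 0 had a positive log2 fold change at 30d against 0d (median -0.34) and 0 at 1d against 0d (median -0.20). Skeletal muscle markers summed to 90.8 to 175 CPM at 0d, 38.5 to 80.7 CPM at 1d, 79.8 to 82.1 CPM at 3d and 27.0 to 143 CPM at 30d. All 10 had a lower mean at each later time point than at 0d, and 1 of them, Myh1, was called lower at 1d and at 3d against 0d and higher at 30d against 3d. Macrophage markers summed to 95.5 to 112 CPM at 0d, 111 to 112 CPM at 1d, 95.4 to 100.3 CPM at 3d and 104 to 105 CPM at 30d. Of 8 macrophage markers, Cx3cr1 was called, lower at 3d against both 0d and 1d. Of 10 sensory neuron markers, Scn10a and Calca were called higher at 3d against 0d, and Calca lower at 30d against 3d. Of all genes, 0.346% were called at 1d and 0.219% at 3d relative to 0d, 0.289% between 1d and 3d, and 0.935% between 3d and 30d. None of the neutrophil, platelet, glia or endothelial markers was called in any of the 5 comparisons. The part of these cells in any difference above was not tested.

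Other genes of the red cell programme were also uneven between the 30d pools. Of 34 genes other than Slc4a1 on the lists of red cell membrane proteins and erythroid regulators, 29 were higher in replicate 1 than in replicate 2 at 30d, where 50.4% of all genes tested were, and 12 of 34 at 0d, where 49.7% were (counts made after the values were seen). Examples, also chosen after their values were seen, were the regulator Klf1 at 1.48 and 0.328 CPM, the regulator Gata1 at 1.08 and 0.314 CPM, and Rhag, an ammonium channel of the red cell membrane, at 2.02 and 0.1 CPM. In 30d replicate 2, Klf1 and Rhag were below both 0d libraries, which measured 0.737 and 0.815 CPM for Klf1 and 0.302 and 0.473 CPM for Rhag, although its globin level was near that of 0d replicate 2. The Rhag values rest on 120 and 7 counts at 30d.

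On the red cell membrane list, 13 of 17 genes had a positive log2 fold change at 30d against 0d, with a median of 0.60 where the median of all genes was -0.00040, and without Slc4a1 the median was 0.42 over 16 genes, 12 of them positive. This median rested on 30d replicate 1. In an alternative added after the data were seen, it was -0.026 with 8 of 16 positive when that library was left out, and 0.75 without 30d replicate 2, 0.27 without 0d replicate 1 and 0.57 without 0d replicate 2. None of these 16 passed the test (edgeR, smallest adjusted p = 0.160, with 4 at an unadjusted p under 0.05, as were 2124 of 17328 genes tested). Its most abundant members per length were Tmod1, Dmtn and Ank1, cytoskeletal genes of red cells that neurons also use, at 85.2, 64.8 and 61.6 CPM per kilobase. The erythroid regulators had a median of 0.18 over 18 genes, 13 of them positive, which was 0.017 with 10 positive when 30d replicate 1 was left out and 0.43 without 30d replicate 2. None passed in any comparison, including 30d against 3d (smallest adjusted p = 0.0848, with 3 at an unadjusted p under 0.05, as were 2254 of 17328 genes tested). Prdx2, Mkrn1 and Bnip3l were the most abundant at 233, 38.1 and 32.4 CPM per kilobase.

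The haem pathways outside the erythroid lineage had medians close to 0. Of 12 haem synthesis genes other than Alas2, 3 had a positive log2 fold change at 30d against 0d, with a median of -0.05, and none passed in any comparison (smallest adjusted p = 0.193, in 30d against 3d). Those at an unadjusted p under 0.05 were 1 of 12 in 30d against 0d, as were 2124 of 17328 genes tested, and 2 of 12 in 30d against 3d, as were 2254 of 17328. Urod, a porphyrin decarboxylase, Tmem14c, a porphyrinogen transporter of mitochondria, and Slc25a38, a mitochondrial glycine carrier for haem synthesis, led this list at 42.2, 35.7 and 30.1 CPM per kilobase. Among 6 genes of haem breakdown and export, 2 were positive with a median of -0.09, and none passed in any comparison (smallest adjusted p = 0.205, in 30d against 3d). In 30d against 0d 2 of the 6 had an unadjusted p under 0.05 (smallest adjusted p = 0.218), and in 30d against 3d 1 did. Hmox2, Slc48a1 and Blvrb were the most abundant at 68.9, 65.7 and 27.2 CPM per kilobase.

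The partners of the mitoferrins in iron-sulphur cluster assembly gave the same picture. Of 13 such genes other than the mitoferrins, 6 were positive at 30d against 0d, and their median was -0.02 (log2). None passed in any comparison (edgeR, smallest adjusted p = 0.392, in 30d against 3d). At an unadjusted p under 0.05 were 0 in 30d against 3d, where 2254 of 17328 genes tested were. The same held for 0 in 30d against 0d, where 2124 of 17328 were. Iscu, the scaffold on which clusters are built, Hspa9, a mitochondrial chaperone, and Glrx5, which hands clusters on, were at 146, 75.3 and 58.2 CPM per kilobase. Iscu averaged 136 ± 1.98 CPM in the naive pools and 128 ± 1.22 CPM in the 30d pools (SD, n = 2).

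Cellular iron handling showed 2 calls, both in 30d against 3d, of 21 genes tested, where 0.935% of all genes were called. Steap3, a ferrireductase of the transferrin cycle, fell from 58.6 and 55.9 CPM at 3d to 48.3 and 39.2 CPM at 30d, a log2 fold change of -0.39 (SE 0.08, edgeR adjusted p = 0.0419). Cp, the copper ferroxidase ceruloplasmin, rose from 73.9 and 74.0 CPM at 3d to 92.0 and 99.9 CPM at 30d, a log2 fold change of 0.38 (SE 0.08, edgeR adjusted p = 0.0398). The naive libraries of Cp, at 97.0 and 80.6 CPM, overlapped those of 30d. The ferritin genes Fth1 and Ftl1 were the most abundant of the list at 1037 and 507 CPM per kilobase, followed by the iron chaperone Pcbp1 at 116 CPM per kilobase. Over the 21 genes the median at 30d against 0d was -0.03, with 10 positive. In that comparison 6 of the 21 had an unadjusted p under 0.05 (edgeR), as did 2124 of 17328 genes tested. None of the 21 passed there (edgeR, smallest adjusted p = 0.163).

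Slc25a37 stood out among the SLC25 carriers, the family of mitochondrial transporters to which it belongs, by a change that chose it. Of the 41 other carriers tested, 18 had a positive log2 fold change at 30d against 0d, with a median of -0.03, and none passed in that comparison (smallest adjusted p = 0.233, with 7 at an unadjusted p under 0.05, as were 2124 of 17328 genes tested). In 30d against 3d 2 of the 41 were called, against 0.935% of all genes. In that comparison Slc25a1, the citrate carrier, fell by 0.27 on the log2 scale (SE 0.05, edgeR adjusted p = 0.0234), from 149 and 147 CPM to 121 and 125 CPM. Slc25a27, a brain uncoupling protein, rose by 0.33 (SE 0.07, edgeR adjusted p = 0.0370), from 31.8 and 32.8 CPM to 39.5 and 41.5 CPM. The carriers of ADP, ATP and phosphate, Slc25a4, Slc25a3 and Slc25a5, were the most abundant at 664, 242 and 156 CPM per kilobase.

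**Figure D5:**
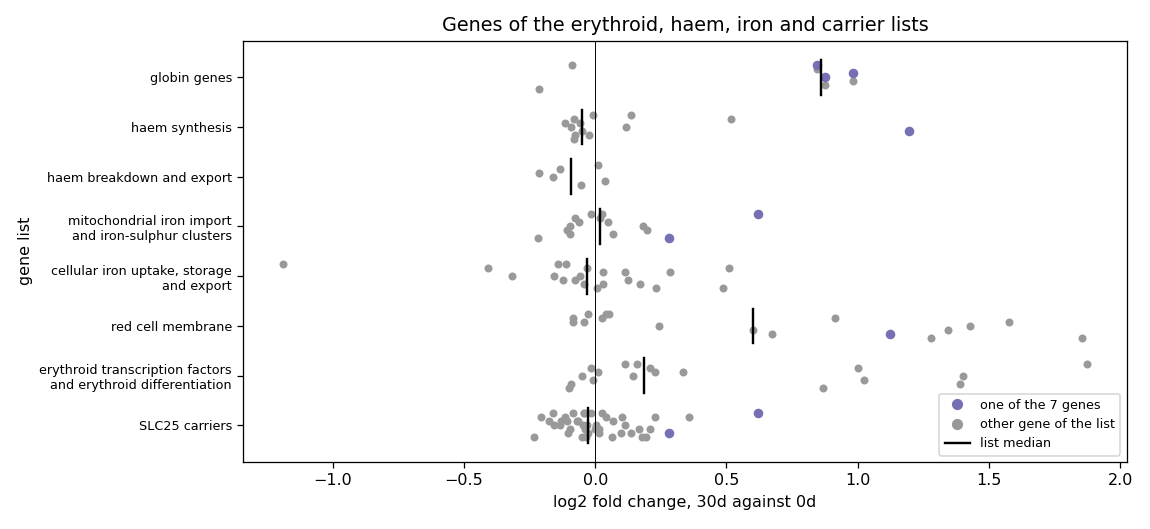
Log2 fold change at 30d against 0d (horizontal axis) of each gene tested on 8 lists of erythroid, haem, iron and carrier genes. Purple points are the 7 genes, grey points other genes of the list and bars list medians, which are 0.60 for the red cell membrane list (0.42 without Slc4a1, and -0.026 when 30d replicate 1 is also left out) and -0.05 for haem synthesis.

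The calls of these 4 genes were not held by every library. Each was lost without 3d replicate 1 or 3d replicate 2. Those of Steap3 and Cp were also lost without 1d replicate 1, 1d replicate 2 or 30d replicate 2, and that of Slc25a27 without 30d replicate 2. In these leave-one-out fits the edgeR adjusted p was 0.0619 to 0.552 for Steap3, 0.0594 to 0.460 for Cp, 0.244 to 0.389 for Slc25a1 and 0.126 to 0.557 for Slc25a27. With all libraries kept, each call was also lost without robust estimation (edgeR adjusted p = 0.0771 for Steap3, 0.0653 for Cp, 0.0522 for Slc25a1 and 0.0582 for Slc25a27). Steap3 was lost with total counts as the only scaling (edgeR adjusted p = 0.0811) and in the compared groups alone (0.0854), and Slc25a27 with the globin covariate (0.0618). Across the alternatives with all libraries kept, log2 fold changes were 0.33 to 0.38 for Slc25a27 and -0.40 to -0.37 for Steap3. They were 0.38 to 0.40 for Cp and -0.30 to -0.25 for Slc25a1.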

How the data were processed

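Reads were trimmed by the authors (cutadapt 2.10), mapped to mm10 by STAR 2.7.5a and assigned as pairs to UCSC exons with featureCounts 2.0.1, per the processing notes and file header. Pairs that overlapped more than 1 gene were given to each, and strand was not used. The deposited values are raw counts per gene for 8 libraries. Multi-mapped pairs were not set to be counted.

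Counts were analysed in R 4.3.3 with edgeR 4.0.16 (filterByExpr, TMM, robust quasi-likelihood F-test), with all 8 libraries in one fit and Benjamini-Hochberg adjustment over 17328 genes. A gene was called at an adjusted p under 0.05. Filtering removed 7093 genes with no more than 0.0120% of any library's counts. CPM used TMM-scaled library sizes, and likeness a prior count of 2. SE is the log2 fold change over the square root of F. Alternatives used DESeq2 1.42.0 and limma 3.58.1.

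Named genes were the 7 members, list genes called in any comparison, the 3 list genes of highest level per length, genes sharing reads with a member, and the 5 genes most like Slc25a37 and Hba-a1. Klf1, Gata1 and Rhag were chosen after their values were seen. Members and lists were chosen with earlier results of these data known. Ahsp and Ly6g had no row in the table. Coding sequences came from GENCODE vM21. Promoters of Slc25a37 and Slc4a1, behavioural tests and yeast data were not analysed here.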

Additional observations from a re-analysis of the deposited data

How the results depend on the processing

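The 7 genes' log2 fold changes, with those of Steap3, Cp, Slc25a1 and Slc25a27, were recomputed under other scalings, filters, tools and sets of libraries. This gave 636 values. Slc25a37 at 30d against 0d ranged from 0.55 to 0.63 across settings with all libraries and from 0.57 to 0.67 with a library left out. The 30d contrasts chose this gene, so no call is read for it. No setting with all libraries reversed a direction. With a library left out, 16 values reversed. The lowest and highest leave-one-out values were -0.024 and 0.20 for Slc25a37 at 1d, -0.0067 and 0.045 at 3d, and -0.18 and 0.042 for 3d against 1d. For Slc25a28 they were -0.038 and 0.26 at 3d and -0.19 and 0.10 for 3d against 1d. At 1d they were -0.12 and 0.86 for Hba-a1, -0.083 and 0.94 for Hbb-b1 and -0.20 and 1.01 for Slc4a1. At 3d they were -0.66 and 0.33 for Hba-a1, -0.54 and 0.48 for Hbb-b1, -0.61 and 0.59 for Hbb-b2, -0.38 and 0.61 for Alas2 and -0.99 and 0.22 for Slc4a1.

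Counts of called genes moved much more. For 1d against 0d (60 genes) they were 95 without the filter, 110 with DESeq2 and 26 to 111 with a library left out. For 3d against 0d (38) they were 89 and 109 under those 2 settings, 25 with limma-voom, 20 without robust estimation, 121 in the compared groups alone, 105 with the globin covariate and 1 to 121 with a library left out. For 30d against 0d (4) they were 177 and 184, 2 with limma-voom, 0 without robust estimation and 0 in the compared groups alone (edgeR, where the fit of all libraries gave 2124 genes at an unadjusted p under 0.05), 23 with the globin covariate and 1 to 202 with a library left out. For 3d against 1d (50) they were 99 and 110, 260 in the compared groups alone and 5 to 117. For 30d against 3d (162, of which 36 higher) they were 358 and 378, 92 without robust estimation, 273 in the compared groups alone, 314 with the globin covariate and 12 to 525, and with total counts as the only scaling 134, of which 43 higher. The cause was not tested. The globin covariate was chosen after the data were seen.

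Over all genes, the correlations of replicate deviations between time points were -0.01 to 0.04. A check over all genes cannot exclude that pools of the same replicate number were linked in a part of the genes. With the replicate number as a block, 69 genes were called for 30d against 0d and 77 for 3d against 1d. Without it 4 and 50 were called. The block changed no call of the 4 list genes.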
